A study of Mus musculus with 2 samples.

Results

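The genes described here are the 9 vascular endothelial growth factor (VEGF) ligand and receptor genes, chosen by symbol: the ligands Vegfa, Vegfb, Vegfc and Pgf, the receptors Flt1, Kdr and Flt4, and the co-receptors Nrp1 and Nrp2. All 9 were found among the 32285 genes of the deposited tables. VEGF ligands are secreted proteins that bind receptor tyrosine kinases on endothelial cells and drive their growth, survival and permeability. In the kidney, podocytes and tubule cells are known sources of VEGF-A, which keeps the glomerular and peritubular capillaries alive and fenestrated. Kdr encodes the main signalling receptor for VEGF-A, Flt1 a receptor that binds the same ligand tightly and can act as a decoy, and Flt4 the receptor for VEGF-C and VEGF-D. Nrp1 and Nrp2 encode neuropilins, co-receptors that also bind class 3 semaphorins.

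The data are 2 droplet single-cell RNA libraries of mouse kidney cells, 1 from mice given cisplatin at 20 mg/kg and 1 from mice given saline. Cisplatin is a chemotherapy drug that injures kidney tubules. The mice were male C57BL6/J animals 10 to 12 weeks old, kidneys were taken at 72 h, and 10 kidneys per condition went into each pooled preparation. Cells were enriched with magnetic beads against CD31 and then against podoplanin, to obtain lymphatic endothelial cells. With 1 library per treatment there was no replicate and no test: treatment, pool and library cannot be told apart, and every interval below covers counting error only.

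The cisplatin library held 19994105 UMIs (unique molecular identifiers, 1 per captured transcript) and the saline library 5879496. Barcodes with 500 or more UMIs and at most 20% mitochondrial UMIs numbered 1729 in cisplatin (median 746 UMIs) and 627 in saline (median 896). A further 1712 barcodes in cisplatin and 3 in saline exceeded the mitochondrial limit. The libraries shared 23161 barcode sequences that held a UMI, and 0 among the kept barcodes. A gate, meaning the barcodes in which markers of 1 cell type were most numerous, took 148 endothelial barcodes in cisplatin and 413 in saline. Median depth in it was 2379.5 UMIs in cisplatin and 1117 in saline, and the mitochondrial share 5.76% and 2.17% of UMIs in cisplatin and saline. All 15 endothelial markers were present in both libraries. The lymphatic label was not borne out: of 6 lymphatic markers, 2 had UMIs in the cisplatin endothelial gate (17 UMIs) and 3 in the saline gate (8 UMIs). Prox1, which encodes the master regulator of lymphatic fate, had 5 UMIs in cisplatin and 1 in saline, and Lyve1, a lymphatic hyaluronan receptor, had 0 and 6. The gate is therefore called endothelial here, and no gate used a VEGF gene.

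Endothelial barcodes were split by markers into capillary, glomerular and arterial ones, and the mix differed between the libraries. Capillary barcodes numbered 75 in cisplatin and 184 in saline, glomerular barcodes 30 and 30, arterial barcodes 13 and 128, and unsplit barcodes 30 and 71. As a share of the endothelial UMIs, glomerular barcodes gave 36.0% in cisplatin and 5.41% in saline. Arterial barcodes gave 12.6% in cisplatin and 59.9% in saline, and capillary barcodes 43.1% in cisplatin and 20.9% in saline. Bead enrichment and depth can set these shares, so each VEGF gene is given within a vessel type as well as over the whole gate. Levels are given as CPM, the UMIs of a gene scaled to the total UMIs of its gate. Since only the 3′ end of a transcript was tagged, isoforms such as soluble Flt1 were not separated.

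The promoters of the 4 genes on which the results turn are shown because these ligands and receptors differed between the libraries in ways that depended on the vessel type. All 9 genes matched the RefSeq promoter table (GRCm38.p6). Each line gives the 250 bases before the annotated start, 5′ to 3′ on the gene's own strand, with matches to 3 motifs in capitals. The motifs were the hypoxia-response core ACGTG or GCGTG, the GC box GGGCGG and the TATA box TATAAA, on both strands.
Vegfa, chr17:46032378-46032627, minus strand: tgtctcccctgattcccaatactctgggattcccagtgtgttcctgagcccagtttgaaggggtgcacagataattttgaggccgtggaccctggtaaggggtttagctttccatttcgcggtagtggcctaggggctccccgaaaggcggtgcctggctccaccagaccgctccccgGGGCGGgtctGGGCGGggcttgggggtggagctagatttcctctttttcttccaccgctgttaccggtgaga
Kdr, chr5:75978456-75978705, minus strand: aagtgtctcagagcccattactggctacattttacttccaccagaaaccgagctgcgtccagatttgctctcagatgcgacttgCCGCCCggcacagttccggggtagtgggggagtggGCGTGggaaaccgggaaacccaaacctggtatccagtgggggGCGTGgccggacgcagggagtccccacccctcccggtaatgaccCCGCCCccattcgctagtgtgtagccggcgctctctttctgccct
Flt1, chr5:147726012-147726261, minus strand: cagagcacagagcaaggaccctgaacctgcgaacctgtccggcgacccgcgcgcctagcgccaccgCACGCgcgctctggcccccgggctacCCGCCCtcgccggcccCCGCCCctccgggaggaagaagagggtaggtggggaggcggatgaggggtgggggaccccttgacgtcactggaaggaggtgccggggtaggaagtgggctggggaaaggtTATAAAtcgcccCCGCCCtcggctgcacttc
Vegfc, chr8:54077282-54077531, plus strand: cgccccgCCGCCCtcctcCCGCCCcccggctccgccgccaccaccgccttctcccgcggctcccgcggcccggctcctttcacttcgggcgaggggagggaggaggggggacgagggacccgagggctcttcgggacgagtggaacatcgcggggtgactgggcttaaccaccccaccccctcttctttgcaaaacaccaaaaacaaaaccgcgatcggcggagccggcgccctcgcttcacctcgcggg
The Vegfa window printed is the first of 2 in the table; it held 2 GC boxes and 0 matches to the hypoxia core, while the second held 2 hypoxia cores and 1 GC box. The Kdr window held 2 hypoxia cores and 2 GC boxes, and no TATA box. The Flt1 window held 1 hypoxia core, 3 GC boxes and 1 TATA box. The Vegfc window held 2 GC boxes alone. Over all 32851 windows of the table, the hypoxia core was in 38.6%, the GC box in 32.7% and the TATA box in 12.4%. A match is a run of letters and says nothing of a factor's binding here.

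Over the whole endothelial gate, Kdr and Vegfa stood higher in the cisplatin library and Vegfc lower. Of the 8 members with 20 or more UMIs over both libraries, 4 were at least 2-fold higher in cisplatin (Vegfa, Vegfb, Kdr and Flt4), against 10.4% of the 8680 genes counted the same way. Of the 8, 1 was at least 2-fold lower (Vegfc), against 5.15% of all genes. These 5 members past 2-fold became 1 of 6 counted in barcodes without a podocyte marker UMI and 2 of 7 counted without the 5 deepest barcodes of each library. With barcodes thinned to 500 UMIs they became 0 of 4 counted. Without podocyte marker UMIs, Vegfb (8 UMIs over both libraries) and Vegfc (13) fell below 20 UMIs and so were not counted. Thinning drew UMIs at random, so each thinned ratio, and the count of 0, rests on a single draw. The members' median log2 ratio was 0.77, and that of all genes 0.06. Vegfa had 125 UMIs in cisplatin and 35 in saline, or 141 and 37.4 CPM, a ratio of 3.78 (95% interval 2.58 to 5.67). Kdr had 1125 UMIs in cisplatin and 510 in saline, or 1273 and 545 CPM, a ratio of 2.34 (2.10 to 2.60). Vegfc had 21 and 47 UMIs in cisplatin and saline, a ratio of 0.473 (0.269 to 0.808). Without podocyte marker UMIs the Vegfc ratio was 0.171, from 1 UMI in cisplatin and 12 in saline, with an interval that included 1 (0.004 to 1.16). It was 0.197 without the deepest 10% of barcodes, and it turned to 2.31 when the 3 vessel types weighed the same. Flt1 differed less, with 1180 UMIs in cisplatin and 991 in saline, a ratio of 1.26 (1.16 to 1.37), and Nrp1 had 575 and 638 UMIs, a ratio of 0.955 (0.852 to 1.07). The Nrp1 ratio was 0.564 as a mean over barcodes, 0.601 with barcodes thinned to 500 UMIs and 0.59 with equal weight of vessel types. Another thinned draw left 25 Nrp1 UMIs in the 148 cisplatin barcodes and 205 in the 413 saline ones. The Vegfa ratio was 3.08 in barcodes without a podocyte marker UMI (1.40 to 7.01), 1.94 without the deepest 10% of barcodes and 1.20 with barcodes thinned to 500 UMIs, where 3 and 7 UMIs were left in cisplatin and saline. Another thinned draw left 8 Vegfa UMIs in the 148 cisplatin barcodes and 11 in the 413 saline ones, so the thinned ratio was not settled. The Kdr ratio was 1.22 in barcodes without a podocyte marker UMI (1.02 to 1.45) and 1.32 without the deepest 10% of barcodes. The podocyte filter also changed depth and the vessel mix, leaving 51 of 128 saline and 3 of 13 cisplatin arterial barcodes. With it Kdr was 1309 CPM in cisplatin and 1075.5 CPM in saline, so most of the shift lay in the saline level. The part of podocyte RNA, depth and vessel mix in that shift was not tested. The vessel types do not share the whole-gate directions, and the whole-gate Kdr ratio was 0.956 when capillary, glomerular and arterial CPM weighed the same in each library.

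**Figure D1:**
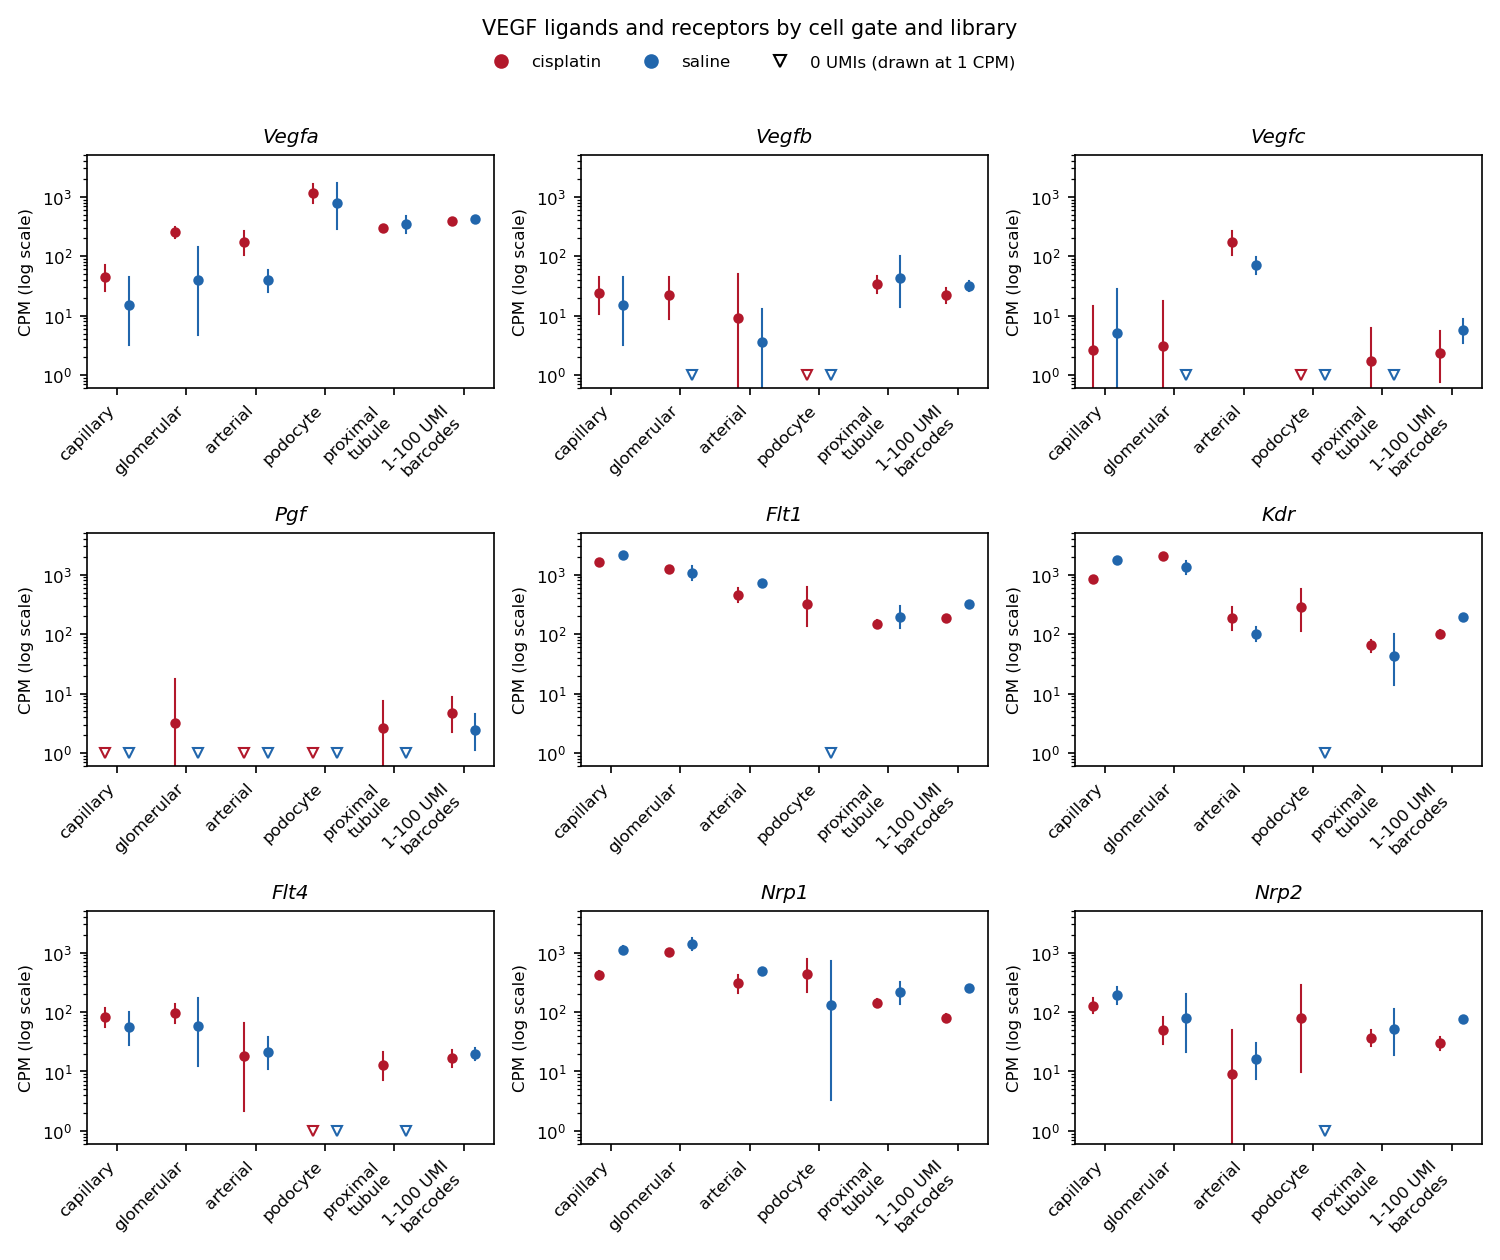
Level of each VEGF ligand and receptor gene in CPM (vertical axis, log scale) in 6 groups of barcodes, for cisplatin (red, left) and saline (blue, right). Points are CPM of summed UMIs in 1 library, bars exact Poisson 95% intervals of counting, and open triangles mark 0 UMIs; Vegfa is highest in podocyte barcodes, Vegfc is higher in arterial than in capillary ones, and Kdr lies lower in cisplatin capillary barcodes.

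In capillary endothelium, Kdr and its co-receptor Nrp1 stood lower in the cisplatin library. Kdr had 317 UMIs in cisplatin and 350 in saline, or 833 and 1792 CPM, a ratio of 0.465 (0.398 to 0.542). Nrp1 had 163 UMIs in cisplatin and 218 in saline, or 428 and 1116 CPM, a ratio of 0.384 (0.311 to 0.472). Flt1 had 625 UMIs in cisplatin and 413 in saline, or 1642 and 2115 CPM, a ratio of 0.776 (0.684 to 0.881). The Flt1 difference did not hold throughout: the ratio was 0.982 without the 5 deepest endothelial barcodes of each library and 1.09 in barcodes without a podocyte marker UMI. Of the 6 members counted in the capillary gate, 2 were at least 2-fold lower, Kdr and Nrp1, against 8.28% of 4855 genes. Of the 6, 1 was at least 2-fold higher, Vegfa, against 12.2% of genes, so that count is near the background.

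The Kdr difference was seen in the share of barcodes as well as in the sum. With each barcode thinned to 500 UMIs, 17 of 75 cisplatin capillary barcodes (22.7%, 13.8 to 33.8) and 97 of 184 saline ones (52.7%, 45.2 to 60.1) held a Kdr UMI. Unthinned, the shares were 61.3% in cisplatin and 71.7% in saline, at median depths of 2518 and 868 UMIs. Among barcodes of cell types that should lack the gene, 73 of 1230 cisplatin proximal tubule barcodes held a Kdr UMI (5.94%, and 3.17% thinned to 500 UMIs) and 5 of 150 saline ones (3.33%, and 2% thinned). In cisplatin, 4 of 41 distal tubule barcodes held one (9.76%), and 0 of 72 leukocyte barcodes at a median of 1245.5 UMIs, which allows a share of barcodes with a UMI of up to 4.17%. A single cisplatin barcode gave 79 of the 317 Kdr UMIs, and the highest saline barcode gave 16 of 350. The Kdr ratio lay between 0.214 and 0.553 under all 16 alternative settings that gave a value, and that of Nrp1 between 0.303 and 0.446. Both libraries' capillary barcodes also differed in other genes: Malat1, a nuclear RNA, had a ratio of 0.329 (0.321 to 0.337), the fatty acid carrier Fabp4 0.366 (0.341 to 0.394) and the junction gene Cdh5 0.604 (0.493 to 0.741), while the fenestral diaphragm gene Plvap had 0.974 (0.866 to 1.10). Markers of other cell types differed too: the 15 distal tubule markers summed to 3081 CPM in cisplatin capillary barcodes (14 with a UMI) and 189.5 CPM in saline ones (7 with a UMI), and the mural and fibroblast list to 189 and 51.2 CPM in cisplatin and saline (9 and 4 of 15). The podocyte list summed to 315 CPM in cisplatin and 399 CPM in saline capillary barcodes, with 10 of 15 markers in each. The part of other cells' RNA, cell state or RNA quality in the Kdr and Nrp1 values was not tested.

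**Figure D2:**
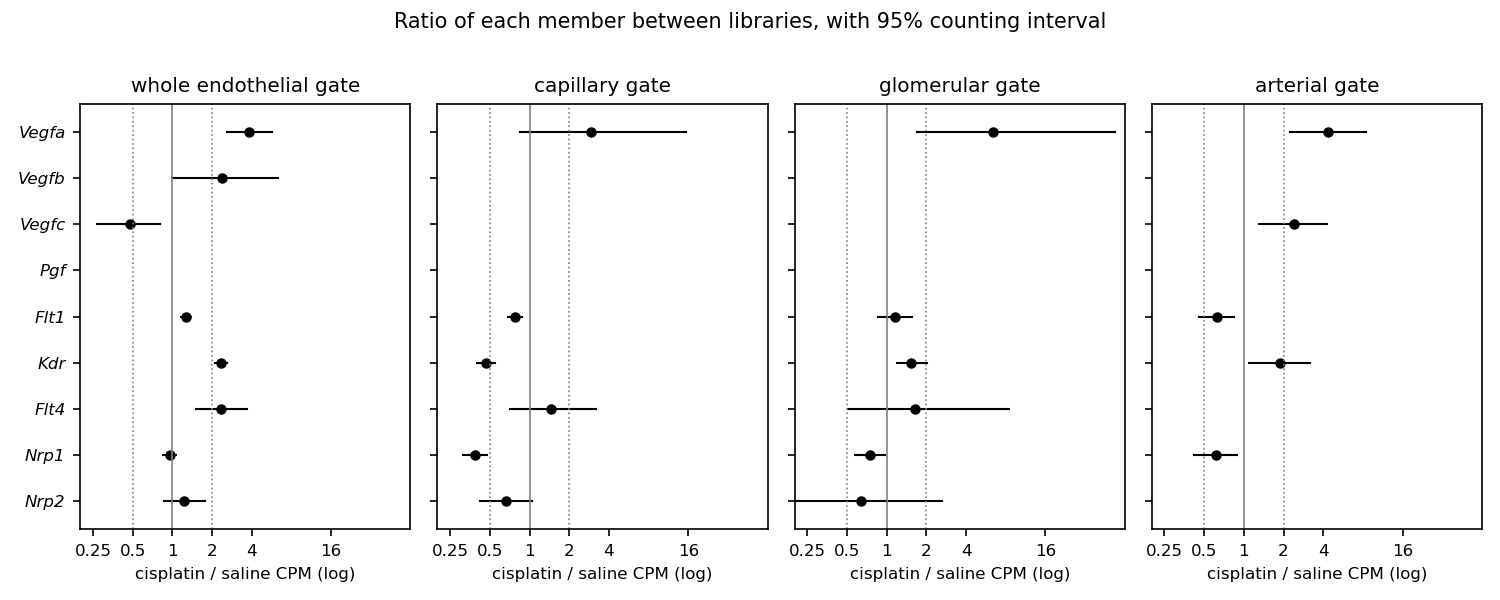
Ratio of CPM, cisplatin over saline (horizontal axis, log scale), for each member with 20 or more UMIs in the whole endothelial gate and in each vessel type. Bars are exact 95% counting intervals, the solid line marks a ratio of 1 and dotted lines a 2-fold difference; Kdr lies above 1 in the whole gate (2.34) and below it in the capillary gate (0.465).

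In glomerular endothelium, Vegfa stood higher in the cisplatin library, together with podocyte and distal tubule markers, and the Kdr difference did not hold without 1 deep saline barcode. Vegfa had 80 UMIs in cisplatin and 2 in saline, or 251 and 39.5 CPM, a ratio of 6.37 (1.71 to 53.5). Kdr had 659 UMIs in cisplatin and 68 in saline, or 2069 and 1342 CPM, a ratio of 1.54 (1.20 to 2.01). The deepest saline glomerular barcode held 13915 of the gate's 50683 UMIs and 0 Kdr UMIs, and without it the saline level was 1849 CPM and the ratio 1.12, with an interval that included 1 (0.871 to 1.46). Flt1 had 391 and 54 UMIs in cisplatin and saline, a ratio of 1.15 with an interval that included 1 (0.865 to 1.56). Nrp1 had 332 and 71 UMIs, a ratio of 0.744 (0.574 to 0.976), which ran from 0.471 to 1.13 under 18 alternative settings. The deepest saline barcode, left out above for Kdr only, held 10 of these Flt1 UMIs and 3 of these Nrp1 UMIs, and both ratios include it. Of the 6 members counted, 1 (Vegfa) was at least 2-fold higher, against 17.3% of 3598 genes, and 0 were at least 2-fold lower, against 8.48% of genes.

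The glomerular Vegfa UMIs lay mostly in 3 cisplatin barcodes that also carried nearly the whole podocyte marker list. Barcodes with 10 or more of the 15 podocyte markers numbered 3 among the 148 cisplatin endothelial barcodes and 0 among the 413 saline ones. These 3 held 56 of the 80 glomerular Vegfa UMIs (70%) and 377 of the 659 Kdr UMIs (57.2%), beside 56.1% of all UMIs in the gate. The deepest held 116215 UMIs, with 15 endothelial, 13 podocyte and 11 proximal tubule markers, 13 Vegfa UMIs and 201 Kdr UMIs. The next held 37144 UMIs, with 14 podocyte markers and 26 Vegfa UMIs, and the last 25247 UMIs, with 13 podocyte markers and 17 Vegfa UMIs. Over the whole glomerular gate the podocyte list summed to 1243 CPM in cisplatin (15 of 15 markers with a UMI) and 237 CPM in saline (5 of 15). The distal tubule list summed to 3435 CPM in cisplatin (12 of 15) and 98.7 CPM in saline (2 of 15), and the part of either list in the Vegfa and Kdr values was not tested. In barcodes without a UMI of any podocyte marker, 15 in cisplatin and 25 in saline, glomerular Vegfa had 10 UMIs in cisplatin and 2 in saline, a ratio of 2.57 whose interval included 1 (0.548 to 24.1). In the same barcodes Kdr had 134 and 63 UMIs in cisplatin and saline, a ratio of 1.09 (0.805 to 1.501). Nrp1 had 83 and 59 UMIs there, a ratio of 0.724 (0.512 to 1.03). With barcodes thinned to 500 UMIs, Kdr was in 60% of cisplatin glomerular barcodes (40.6 to 77.3) and 56.7% of saline ones (37.4 to 74.5), which overlap.

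**Figure D3:**
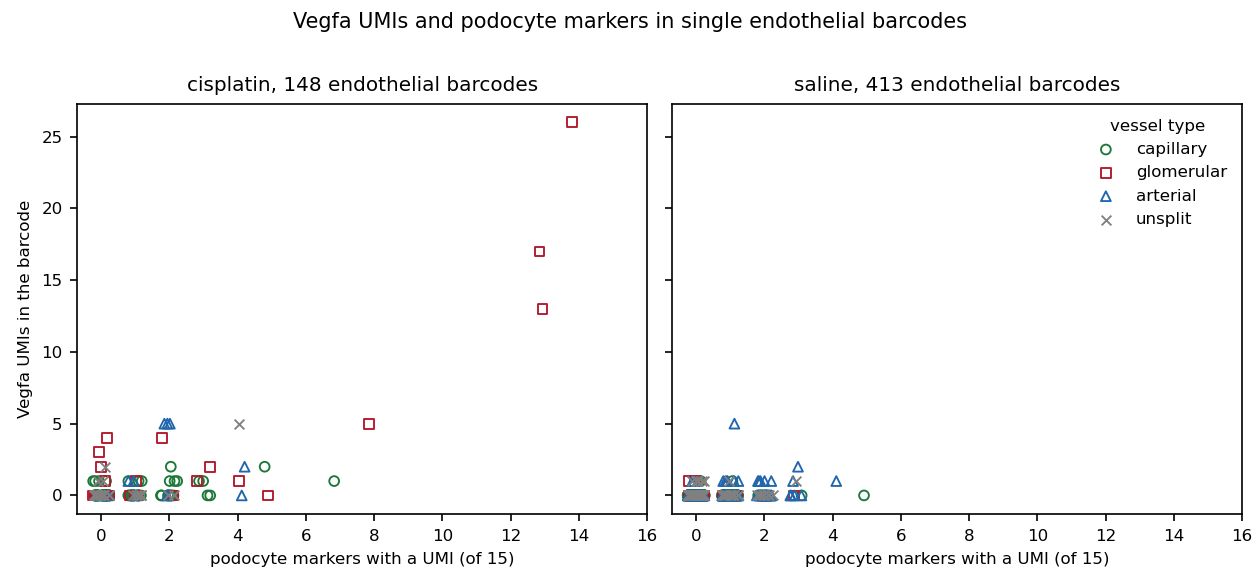
Vegfa UMIs in each endothelial barcode (vertical axis) against the number of the 15 podocyte markers that had a UMI in it (horizontal axis, points shifted sideways at random), cisplatin left and saline right, with symbols for the vessel type. The 3 cisplatin glomerular barcodes with 13 or 14 podocyte markers hold 13, 26 and 17 Vegfa UMIs, and the highest saline barcode holds 5.

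In arterial endothelium, Vegfc, which encodes the ligand of Flt4, was higher than in capillary endothelium in both libraries. Of the endothelial Vegfc UMIs, arterial barcodes held 19 of 21 in cisplatin and 40 of 47 in saline, and capillary barcodes held 1 in each library. Arterial over capillary CPM was 65.1 in cisplatin (10.4 to 2706) and 13.9 in saline (2.36 to 564). Glomerular barcodes held 1 Vegfc UMI in cisplatin and 0 in saline, where glomerular over arterial could not be placed (0 to 1.07). Within the arterial gate Vegfc had 171 CPM in cisplatin and 71.3 CPM in saline, a ratio of 2.40 (1.31 to 4.24), in the opposite direction to the whole gate. Only 3 cisplatin barcodes carried these UMIs, with 9, 8 and 2 each at 22456, 20597 and 10361 UMIs of depth, against 24 saline barcodes. As a share of arterial barcodes this was 23.1% in cisplatin (5.04 to 53.8) and 18.8% in saline (12.4 to 26.6). The ratio turned to 0.856 when each barcode weighed the same and to 0.443 without the deepest 10% of endothelial barcodes, so its direction rests on the deepest of those barcodes.

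Arterial Vegfa had 19 UMIs in cisplatin and 22 in saline, or 171 and 39.2 CPM, a ratio of 4.36 (2.23 to 8.44). It was seen in 6 of 13 cisplatin barcodes and 17 of 128 saline ones, at median depths of 5485 and 3004 UMIs. The same 3 Vegfc-bearing cisplatin barcodes held 5 Vegfa UMIs each, 15 of the 19. Kdr had 21 and 56 arterial UMIs in cisplatin and saline, or 189 and 99.9 CPM, a ratio of 1.89 (1.09 to 3.18). A single cisplatin barcode gave 8 of those 21. Flt1 had 51 and 410 arterial UMIs, or 459 and 731 CPM, a ratio of 0.628 (0.460 to 0.842), and Nrp1 34 and 277, a ratio of 0.620 (0.421 to 0.887). Of the 5 members counted, 2 (Vegfa and Vegfc) were at least 2-fold higher, against 6.39% of 5088 genes, and 0 were at least 2-fold lower, against 15% of genes. The 13 cisplatin arterial barcodes differed from the 128 saline ones in other markers too: Ehd3, a glomerular endothelial gene, had a ratio of 8.30 (4.09 to 17.4), and the elastic fibre gene Eln 2.47 (1.94 to 3.12).

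The balance of the main VEGF-A receptors within a barcode set does not depend on how the libraries were scaled. Kdr made up 33.7% of the Kdr and Flt1 UMIs in cisplatin capillary barcodes (30.6 to 36.8) and 45.9% in saline ones (42.3 to 49.5). In arterial barcodes it made up 29.2% in cisplatin (19.1 to 41.1) and 12.0% in saline (9.21 to 15.3). In glomerular barcodes the shares were 62.8% in cisplatin (59.8 to 65.7) and 55.7% in saline (46.5 to 64.7), whose intervals overlap. In barcodes without a podocyte marker UMI the capillary shares were 22.6% in cisplatin (17.2 to 28.7) and 48.0% in saline (43.7 to 52.4), so the order held in that vessel type. The glomerular shares there were 62.0% in cisplatin (55.2 to 68.5) and 69.2% in saline (58.7 to 78.5), and the arterial ones 44.4% in cisplatin (13.7 to 78.8) and 19.4% in saline (11.9 to 28.9), both pairs overlapping. The whole-gate share was 48.8% in cisplatin (46.8 to 50.9) and 34.0% in saline (31.6 to 36.4), the reverse of the capillary order. Without barcodes holding a podocyte marker UMI, which left 51 of 128 saline arterial barcodes, it was 42.9% in cisplatin (38.5 to 47.4) and 44.9% in saline (41.4 to 48.4).

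**Figure D4:**
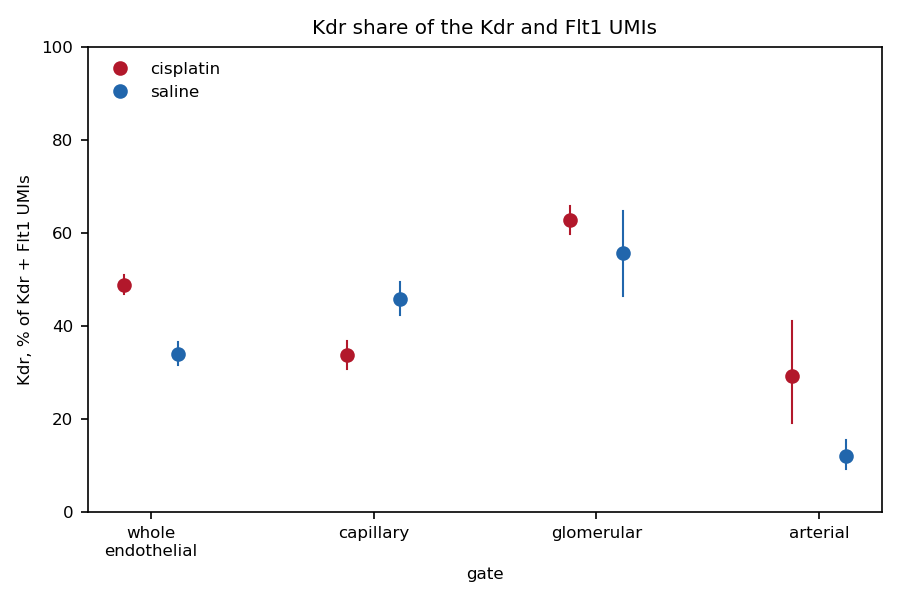
Kdr UMIs as a percentage of Kdr plus Flt1 UMIs (vertical axis) in the whole endothelial gate and in each vessel type, cisplatin (red, left) and saline (blue, right). Bars are exact binomial 95% intervals of counting; the share is lower in cisplatin among capillary barcodes (33.7% and 45.9% in cisplatin and saline) and higher among arterial ones (29.2% and 12.0%).

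Within each library the receptors followed the vessel type. Of the 3 vessel types, Kdr was lowest in arterial barcodes of both libraries, with glomerular over arterial ratios of 10.9 in cisplatin (7.10 to 17.8) and 13.4 in saline (9.29 to 19.5). Glomerular over capillary Kdr was 2.49 in cisplatin (2.17 to 2.85) and 0.749 in saline (0.569 to 0.973), but without the deepest saline glomerular barcode the saline ratio was 1.03 (0.784 to 1.34), so the order of capillary and glomerular Kdr in saline was not settled. Flt1 was ordered capillary, glomerular, arterial in both libraries, with 1642, 1228 and 459 CPM in cisplatin and 2115, 1065 and 731 CPM in saline. Each neighbouring step lay beyond counting error: glomerular over capillary Flt1 was 0.748 in cisplatin (0.657 to 0.850) and 0.504 in saline (0.372 to 0.670), and glomerular over arterial Flt1 2.67 in cisplatin (1.99 to 3.65) and 1.46 in saline (1.08 to 1.94). Nrp1 was highest in glomerular barcodes, with 1042 CPM in cisplatin and 1401 CPM in saline, although the saline capillary level of 1116 CPM lay within counting error of it. A UMI of each of Flt1, Kdr and Nrp1 was found in 63 of 148 cisplatin endothelial barcodes (42.6%) and 121 of 413 saline ones (29.3%), at the unequal depths given above. In capillary barcodes, none of the 3 was seen in 10 of 75 in cisplatin (13.3%, 6.58 to 23.2) and 7 of 184 in saline (3.80%, 1.54 to 7.68). The deepest of those 10 cisplatin barcodes held 4274 UMIs, and the others from 554 to 1114, below the cisplatin capillary median of 2518. The part of depth in these shares was not tested.

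Flt4, the VEGF-C receptor, is best known from lymphatic endothelium but is also found on blood capillaries. It had 68 UMIs in cisplatin and 31 in saline over the whole gate, a ratio of 2.32 (1.499 to 3.68). It was seen in 36 cisplatin and 29 saline barcodes, more than held any lymphatic marker (4 and 3). Within vessel types the difference was not detectable at this depth. The capillary ratio was 1.45 (0.707 to 3.19) from 31 and 11 UMIs in cisplatin and saline, and the glomerular ratio 1.64 (0.513 to 8.41) from 31 and 3. Nrp2, the co-receptor that pairs with Flt4, had 71 and 61 UMIs in cisplatin and saline, a ratio of 1.23 (0.864 to 1.77), and was mostly capillary, with 49 and 38 of those UMIs. Vegfb, a ligand of Flt1, had 18 and 8 UMIs in cisplatin and saline, and its ratio of 2.38 had an interval that included 1 (0.986 to 6.34). Pgf, placental growth factor, another ligand of Flt1, had 2 endothelial UMIs in cisplatin and 0 in saline, and no ratio is given. Outside endothelium, 4 of its UMIs lay in the 14 cisplatin mural and fibroblast barcodes. Vegfd, the remaining mammalian ligand, had 2 endothelial UMIs in each library.

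Podocyte barcodes held Vegfa at the highest level of any gate. They numbered 8 in cisplatin and 2 in saline. Vegfa had 29 UMIs in cisplatin and 6 in saline, or 1165 CPM (781 to 1674) and 785 CPM (288 to 1709), a ratio of 1.48 (0.606 to 4.37). A single barcode gave 18 of the 29 cisplatin UMIs and a single one all 6 saline UMIs, so no difference was detectable. The cisplatin podocyte barcodes also held 7 Kdr and 8 Flt1 UMIs beside 75 UMIs of 13 of the 15 endothelial markers, and the saline ones held 0 of each.

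Vegfa in proximal tubule barcodes was compared with its level in free RNA, the RNA of broken cells that enters every droplet. In proximal tubule barcodes Vegfa was 298 CPM in cisplatin (268 to 331) and 344 CPM in saline (245 to 468), a ratio of 0.868 (0.624 to 1.24). In barcodes of 1 to 100 UMIs, taken as free RNA, it was 391 CPM in cisplatin (365 to 418) and 426 CPM in saline (405 to 448). The cisplatin tubule level was lower than this beyond counting error, while the saline intervals overlapped. The free RNA level depended on the barcodes taken: it was 246 CPM in cisplatin and 419 CPM in saline in barcodes of 1 to 50 UMIs, and 328 CPM in cisplatin and 380.1 CPM in saline in deeper ones of up to 300 UMIs. Proximal tubule markers summed to 11200 CPM in the cisplatin and 14374 CPM in the saline barcodes of 1 to 100 UMIs, so Vegfa of tubule cells and of free RNA cannot be told apart here. Of 6 members counted in proximal tubule barcodes, 0 were 2-fold higher and 0 were 2-fold lower, against 19% and 6.78% of 8501 genes. Distal tubule barcodes, 41 in cisplatin and 6 in saline, held 8 and 0 Vegfa UMIs. In barcodes of 1 to 100 UMIs, Flt1, Kdr, Nrp1 and Nrp2 stood lower in the cisplatin library. The Vegfb ratio was 0.704 (0.492 to 0.992) and that of Vegfa 0.917 (0.842 to 0.998), intervals that also left out 1. The Flt4 ratio was 0.853, with an interval that included 1 (0.556 to 1.29), as did those of Vegfc and Pgf. Flt1 had 187 CPM in cisplatin and 317 CPM in saline, Kdr had 216 UMIs in cisplatin and 726 in saline, a ratio of 0.515 (0.440 to 0.600), and Nrp1 had 80.4 CPM in cisplatin and 255 CPM in saline, a ratio of 0.315 (0.266 to 0.371). The Nrp2 ratio was 0.397 (0.298 to 0.523). Mitochondrial UMIs made up 30.6% of the UMIs of these barcodes in cisplatin and 3.84% in saline, and they count in the totals to which CPM is scaled. Their part in the ligand and receptor ratios was not tested, so the direction of the small Vegfa and Vegfb differences was not settled.

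By the order of levels in cisplatin, Vegfa ran from podocyte (1165 CPM) through barcodes of 1 to 100 UMIs (391 CPM), proximal tubule (298 CPM), glomerular (251 CPM) and arterial (171 CPM) to capillary barcodes (44.7 CPM). Proximal tubule and glomerular values overlapped within counting error, and so did glomerular and arterial values. In saline it ran from podocyte (785 CPM) through barcodes of 1 to 100 UMIs (426 CPM) and proximal tubule (344 CPM) to glomerular (39.5 CPM), arterial (39.2 CPM) and capillary barcodes (15.4 CPM), and proximal tubule to glomerular was the only step in that order beyond counting error. Free RNA, its share estimated from proximal tubule markers as 9.03% of cisplatin and 5.42% of saline capillary UMIs, would give 13.4 of the 17 Vegfa UMIs in cisplatin capillary barcodes and 4.51 against the 3 seen in saline. The capillary Vegfa ratio of 2.91 had an interval that included 1 (0.841 to 15.5). In glomerular and arterial barcodes of the cisplatin library the same estimate would give 9.46% and 9.91% of the Vegfa UMIs, and for Kdr, Flt1 and Nrp1 it was at most 2.39% in any vessel type of either library.

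Genes of the surrounding pathway mostly stayed within 2-fold over the endothelial gate, where 10.4% of all genes were 2-fold higher and 5.15% were lower. Of 7 hypoxia-sensing genes counted, 0 were 2-fold higher and 1 was lower, the oxygen-sensing hydroxylase Egln3, with 9 UMIs in cisplatin and 21 in saline, a ratio of 0.454 whose interval included 1 (0.183 to 1.03). Of 4 angiopoietin axis genes, 0 were 2-fold higher or lower, with a median log2 ratio of -0.30. In capillary barcodes Ptprb, the phosphatase that restrains the angiopoietin receptor Tek, had 290 UMIs in cisplatin and 377 in saline, a ratio of 0.395 (0.337 to 0.461), and Tek itself 0.814 (0.628 to 1.06). Hif1a, the oxygen-regulated transcription factor, had a capillary ratio of 0.458 (0.277 to 0.752) and an arterial ratio of 2.12 (1.21 to 3.60).

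Of 6 semaphorin and plexin genes counted, 1 was 2-fold higher and 1 lower. Sema3f, which encodes a secreted ligand of neuropilin-2, had 226 UMIs in cisplatin and 91 in saline, a ratio of 2.63 (2.05 to 3.39). It was also higher in capillary (2.63, 1.55 to 4.71) and glomerular barcodes (2.09, 1.02 to 4.96), while the arterial interval included 1 (1.40, 0.693 to 2.62). Sema3g, a semaphorin of arterial endothelium, had 184 and 446 UMIs in cisplatin and saline, a ratio of 0.437 (0.366 to 0.520). Within arterial barcodes its ratio was 0.951, with an interval that included 1 (0.7055 to 1.26). It was 0.676 in capillary barcodes (0.485 to 0.946) and 0.416 in glomerular ones (0.214 to 0.859). Of 9 receptor adaptors and effectors, 2 were higher and 1 lower: the trafficking adaptor Gipc1 (2.65, 1.45 to 5.07), the integrin subunit Itgav (2.21, 1.32 to 3.81) and the SH2 adaptor Nck1 (0.474, 0.378 to 0.591). Of 9 genes known to be induced by VEGF, 0 were 2-fold higher and 1 was lower. That gene was Aplnr, the apelin receptor, with 6 UMIs in cisplatin and 28 in saline, a ratio of 0.227 (0.0769 to 0.559). In capillary barcodes, where 8.28% of all genes were 2-fold lower, 2 of 5 were lower, Aplnr (0.117, 0.0345 to 0.316) and Spry4 (0.428, 0.165 to 1.08), the interval of Spry4 including 1. Ptprb, Tek, Hif1a and Spry4 were named after their values were seen.

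The genes whose levels ran most like those of Vegfa, Kdr and Flt1 were looked for over 6 points, the capillary, glomerular and proximal tubule gates of each library. Among 7442 genes, Pearson's r of log2(CPM + 10) with Vegfa was highest for Stk11 (0.994), Pcolce (0.988) and Skiv2l (0.982). With Kdr it was highest for Cav1 (0.999), Tm9sf2 (0.998) and Epb41l2 (0.998), and with Flt1 for Pomp (0.997), Arhgap31 (0.996) and Map1lc3b (0.995). With so few points, which share libraries and depth, these values only describe the gates.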

How the data were processed

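Per the file headers and the values, the authors deposited unfiltered tables of whole-number UMI counts, a gene and a barcode per entry, with no normalization; per the submitters' processing notes they came from Cell Ranger 6.0.1. The headers carry a Cell Ranger mark of 4, and the difference was not resolved. Totals were 19994105 counts in cisplatin and 5879496 in saline, 1 library each.

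Barcodes with 500 or more UMIs and at most 20% mitochondrial UMIs went to the class with most different markers of 15 (at least 3, and more than any other of 6 classes). Endothelial barcodes went to the vessel type with most of 8 markers (at least 2). No doublet caller was run. UMIs were summed per gate, and ratios of CPM have exact conditional binomial 95% intervals (scipy 1.17.1). Genes with 20 or more UMIs were counted as higher or lower at 2-fold. Log2 ratios had 0.5 UMI added. The method was tested on simulated data, drawn as independent Poisson counts. The intervals rest on the same assumption, so the test says nothing of UMIs concentrated in single barcodes. Members, markers and lists were chosen with earlier results of these data known. All 9 members were named, and of each pathway list up to 2 genes per direction past 2-fold, ordered by the interval bound nearest 1; for Vegfa, Kdr and Flt1 the genes with the highest correlation; other genes named were markers or chosen after their values were seen. Other depth, mitochondrial, marker, scaling and weighting settings were tried, 5 of them added after seeing the data, and 1 setting is not reported here.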

Additional observations from a re-analysis of the deposited data

Results flagged for a closer look

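The Kdr ratio of cisplatin over saline lay on opposite sides of 1 in different vessel types, with each counting interval leaving out 1. It was 0.465 in capillary barcodes (0.398 to 0.542), 1.54 in glomerular barcodes (1.20 to 2.01) and 1.89 in arterial barcodes (1.09 to 3.18). With 1 library per treatment the difference between vessel types was not tested. The capillary ratio stayed below 1 under all 16 settings that gave a value, and the arterial ratio above 1 under all 16. The arterial values ran from 1.57 to 8.44 and rest on few cisplatin barcodes. There were 13 with 21 Kdr UMIs in the main setting, and 3 with 4 Kdr UMIs without podocyte marker UMIs. The glomerular ratio was below 1 under 1 of 18 (0.706, barcodes thinned to 500 UMIs), and without the deepest saline glomerular barcode it was 1.12 with an interval that included 1 (0.871 to 1.46). The thinned value came from a single random draw. Another draw left 35 Kdr UMIs in 30 cisplatin and 34 in 30 saline glomerular barcodes, so its direction depended on the draw.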

How the results depend on the processing

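The count of 5 members past 2-fold in the whole endothelial gate, of 8 counted, was 3 of 8 as a mean over barcodes. It was 1 of 6 counted without podocyte marker UMIs and 2 of 7 counted without the 5 deepest barcodes of each library. It was 0 (of 4 counted) in a single random draw that thinned barcodes to 500 UMIs. Settings added after seeing the data gave 2 of 7 counted without the deepest 10% of barcodes and 3 of 8 with equal weight of vessel types. The Kdr ratio in that gate was 3.55 at 1000 UMIs, 2.03 with a class margin of 2 markers, 1.22 without podocyte marker UMIs, 1.85 without the 5 deepest and 1.32 without the deepest 10%. It turned to 0.955 as a mean over barcodes and 0.956 with equal weights. It was 0.781 in a single random draw thinned to 500 UMIs. Another draw left 89 Kdr UMIs in the 148 cisplatin barcodes and 235 in the 413 saline ones, so the thinned direction depended on the draw. Vegfa was 1.20 thinned, from 3 and 7 UMIs in cisplatin and saline (8 and 11 in another draw), and 1.94 without the deepest 10%. Vegfc turned to 2.31 with equal weights, and in arterial barcodes to 0.856 as a mean over barcodes and 0.443 without the deepest 10%. In capillary barcodes Kdr was 0.553 at 1000 UMIs, 0.366 with the margin of 2, 0.345 without podocyte marker UMIs, 0.311 as a mean over barcodes and 0.214 thinned. Nrp1 was 0.303 without podocyte marker UMIs. Flt1 was 1.09 without them, 0.982 without the 5 deepest and 0.975 without the deepest 10%. Glomerular Kdr was 1.12 without the deepest saline glomerular barcode and 1.22 without the deepest one of each library, settings also added after seeing the data. The causes were not tested. No paired analysis was possible because each treatment has 1 library. Depth limits Pgf, Vegfb and the podocyte gate most, where few UMIs were counted.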
